A study of Mus musculus with 12 samples.

Results

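The NRF2 and glutathione redox genes examined here were Nfe2l2, Keap1, Gclc, Gclm, Gsr, Txnrd1, Srxn1, Hmox1 and Nqo1, 9 of the 13780 genes in the count table. They were picked by gene symbol as a regulator, its inhibitor and 7 enzymes of the pathway, and all 9 passed the filter on low counts. RNA was sequenced from mouse CD8+ T cells in 3 groups of 4 libraries. Naïve cells were frozen straight after isolation. The other 2 groups were kept for 72 h with beads carrying anti-CD3 and anti-CD28 in the presence of recombinant human IL-2, either in plain media (labelled vehicle) or in media with 40 mM sodium lactate. All cells came from spleens of wild-type C57BL/6J mice aged 8 to 12 weeks, with the naïve libraries from 4 donors and the activated libraries from 5. CD8+ cells were enriched by positive selection on magnetic beads. The culture medium of both activated groups held the reductant 2-mercaptoethanol, to which the naïve cells were never exposed. Sodium lactate was compared with plain media, with no sodium-matched control among these libraries, and lactate, sodium and osmolarity cannot be told apart in these libraries.

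NRF2, the protein of Nfe2l2, is a transcription factor that the adaptor KEAP1 holds in the cytoplasm and feeds to a CUL3 ubiquitin ligase for degradation. Oxidants and electrophiles modify cysteines of KEAP1, NRF2 then accumulates, pairs with a small MAF protein and binds antioxidant response elements near genes for glutathione synthesis, thioredoxin reduction, NADPH production and haem breakdown. Much of this control acts on the NRF2 protein, which mRNA counts do not measure. Activated T cells need glutathione and thioredoxin to sustain growth and DNA synthesis.

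The core of the antioxidant response element was looked up as the letters TGACNNNGC, where N is any base, on both strands of the RefSeq promoter windows of GRCm38.p6, which run from 250 bases before to 50 after each transcription start. Of the 32851 windows of all genes, 12.4% held the letters. The table holds 8 windows for 6 of the members (Nfe2l2, Keap1, Gclm, Txnrd1, Srxn1 and Nqo1), and 4 of these 8 held a match. Of the members with a match, Srxn1 and Txnrd1 were called higher with lactate below, and Gclm and Nfe2l2 were not called. Gsr, which was also called higher, has no window. Whether the element had a part in these calls was not tested. The 4 matches are shown because this is the element through which NRF2 is known to act on such genes. Each is written 5′ to 3′ on the strand of the gene with 10 bases on either side, and capitals mark the matching letters, which in Srxn1, Txnrd1 and Gclm are the reverse complement of the motif.
Srxn1: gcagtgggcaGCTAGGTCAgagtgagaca
Txnrd1: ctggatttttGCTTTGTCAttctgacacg
Gclm: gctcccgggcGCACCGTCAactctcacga
Nfe2l2: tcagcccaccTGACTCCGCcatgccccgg
The stretches lie at chr2:152105542-152105570 (plus strand) for Srxn1, chr10:82859104-82859132 (plus strand) for Txnrd1, chr3:122245413-122245441 (plus strand) for Gclm and chr2:75704885-75704913 (minus strand) for Nfe2l2. The match of Srxn1 lay 29 to 37 bases after the annotated start, that of Txnrd1 at -92 to -84 of 1 of its 3 listed starts, that of Gclm at -134 to -126 and that of Nfe2l2 at -240 to -232. These letters are a description of the windows and not sites of binding.

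Total counts ran from 14726904 to 21478137 per library. Libraries are compared in CPM, read counts put on a common library size by TMM scaling, and genes in TPM, which also divide by gene length. The test was edgeR's quasi-likelihood fit to all 12 libraries, p-values were adjusted by Benjamini-Hochberg over the 13767 genes tested, and a call means that the adjusted p did not exceed 0.01. SE is the standard error of a log2 fold change. By their library numbers the libraries fall in a low and a high series. Values given within a series are differences of mean log2 CPM, not edgeR estimates, and were not tested. The high series holds 1 naïve, 1 media and 2 lactate libraries, so its values of media against naïve compare single libraries. Markers of CD8+ T cells were abundant throughout, with a summed level of 1991 to 4036 CPM in naïve, 3095 to 3879 in media and 2303 to 2901 with lactate. The naïve libraries also held markers of other spleen cells. The 13 macrophage and monocyte markers summed to 1054 to 4203 CPM in naïve libraries, 12.1 to 19.4 in media and 5.43 to 11.1 with lactate, and all 13 were called lower in media than in naïve cells. Spic and Fcgr1 had no count in either activated group. The 8 B cell markers summed to 633 to 1518 CPM in naïve libraries, 10.2 to 17.8 in media and 7.53 to 9.64 with lactate, and the 6 red cell markers to 86.0 to 3568, 0 to 0.231 and 0.0708 to 1.90. The 5 dendritic cell markers tested summed to 61.6 to 146, 0.279 to 0.601 and 0.314 to 2.82 CPM, and the 3 NK cell markers to 16.5 to 40.4, 0.439 to 0.947 and 0.193 to 1.18. The 3 CD4+ T cell markers summed to 26.1 to 55.3, 44.6 to 55.8 and 76.0 to 89.4 CPM, with Cd4 lower and Zbtb7b higher in both activated groups than in naïve cells. Between lactate and media, 3 of the 6 CD8+ T cell markers and 2 of the 8 B cell markers were called lower with lactate. In the same comparison 1 of the 3 CD4+ T cell markers was called higher, and no other marker was called. In bulk RNA fewer cells of a type and less RNA per cell cannot be told apart. The part of cell composition was not tested, either in the comparisons with naïve libraries or between lactate and media.

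Activation with sodium lactate gave higher transcript levels of 3 members that recycle glutathione, thioredoxin and oxidized peroxiredoxin. Transcripts of NRF2, KEAP1 and the subunits of glutamate-cysteine ligase, which starts glutathione synthesis, were not called changed. Txnrd1 was 2.12-fold higher with lactate than in media, Gsr 1.75-fold and Srxn1 5.64-fold. No member was called lower by edgeR, DESeq2 or limma voom, and 4 of the 9 had an unadjusted p under 0.05, all of them higher with lactate, where 24.8% of all genes tested were higher and 23.4% lower at that p. Of all genes tested, 13.9% were called higher and 11.1% lower with lactate, and the 3 of 9 members stand beside that background. The median log2 fold change over the 9 members was 0.46, against -0.0016 over all genes tested. In 4 of the 9 members every lactate library lay above every media library, which held for 23.2% of all genes tested, and 44.7% did not overlap in either direction. The members were chosen with earlier results of these data known. Neither these shares nor the median can therefore test for an excess over all genes.

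**Figure D1:**
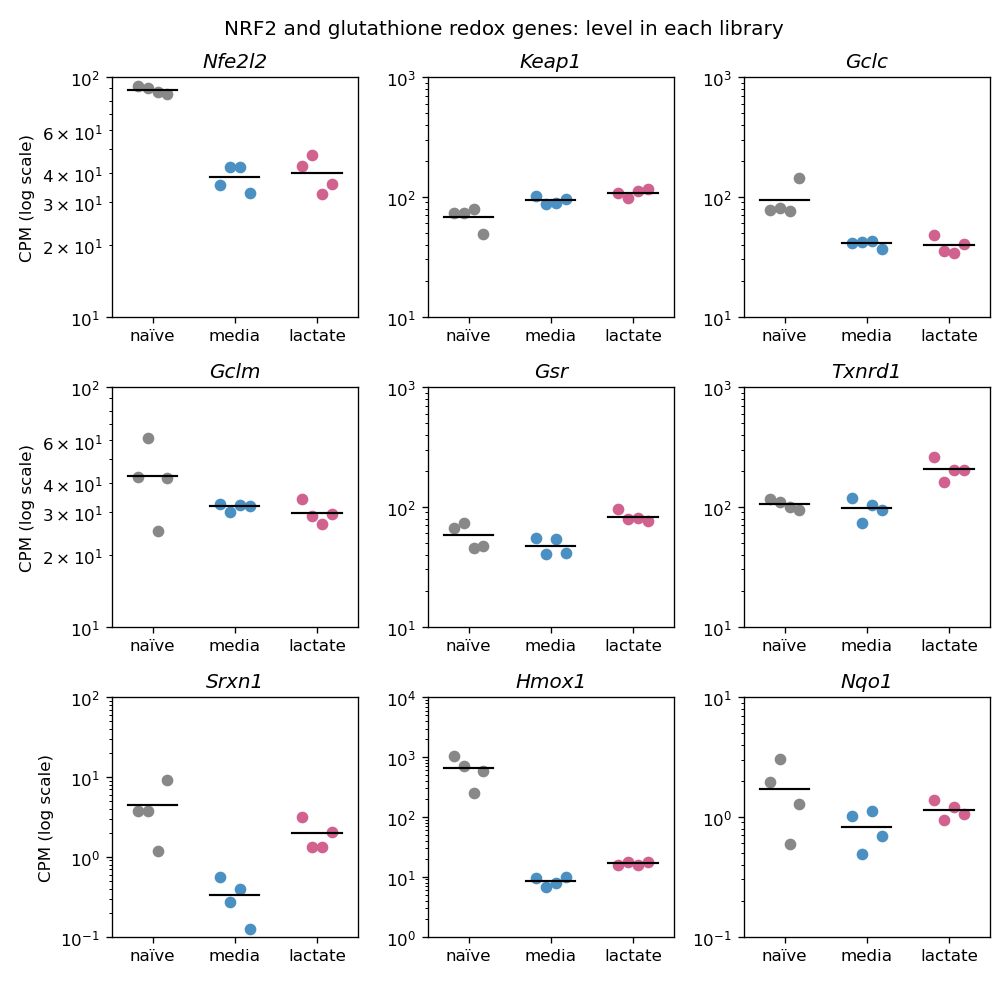
Level of each of the 9 genes in CPM (log scale, ranges differ between panels) in the 4 naïve, 4 media and 4 lactate libraries. Points are libraries in the order of their replicate number and the line is the group mean. In Gsr, Txnrd1, Srxn1 and Hmox1 all 4 lactate libraries lay above all 4 media libraries.

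Txnrd1 encodes the cytosolic thioredoxin reductase, a selenoprotein that returns oxidized thioredoxin to its reduced form with electrons from NADPH. Its gene lies on chromosome 10, 82833951 to 82897712 (GRCm38, plus strand, ENSMUSG00000020250), and its exons overlap no other gene in GENCODE M21. The 4 naïve libraries had 116, 110, 100 and 94.1 CPM, the 4 media libraries 118, 74.1, 105 and 94.6, and the 4 lactate libraries 263, 161, 203 and 204. Naïve and media libraries overlapped, and all lactate libraries stood above both. The log2 fold change of lactate against media was 1.08 (SE 0.16, edgeR adjusted p = 0.000345), and it was 1.08 within the low and 1.10 within the high series of library numbers. Txnrd1 was the member with the steadiest call, passing the threshold in all 23 alternative settings with an adjusted p of 2.23e-08 to 0.00158. Media against naïve gave -0.10 (SE 0.16, edgeR adjusted p = 0.587, 95% interval -0.45 to 0.25), and lactate against naïve 0.98 (adjusted p = 0.000127).

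Gsr encodes glutathione reductase, which uses NADPH to turn the oxidized glutathione dimer back into reduced glutathione. The gene lies on chromosome 8, 33652523 to 33698163 (plus strand, ENSMUSG00000031584). Its naïve libraries had 66.8, 73.4, 45.0 and 47.3 CPM, its media libraries 55.3, 40.3, 53.9 and 40.8, and its lactate libraries 96.0, 80.1, 80.2 and 75.8. The lactate libraries thus stood above the highest naïve and the highest media library. Lactate against media gave a log2 fold change of 0.80 (SE 0.17, edgeR adjusted p = 0.00293), with 0.83 in the low and 0.93 in the high library series. The call was narrowly lost without media replicate 2 (adjusted p = 0.0125), without media replicate 4 (0.0106) or without lactate replicate 1 (0.0107). Gsr was not called in media against naïve (log2 fold change -0.29, adjusted p = 0.152), and lactate against naïve gave 0.51 (adjusted p = 0.0154).

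Srxn1 encodes sulfiredoxin, which repairs peroxiredoxins whose cysteine has been over-oxidized, and it is a widely used reporter of NRF2 activity. The gene lies on chromosome 2, 152105516 to 152111376 (plus strand, ENSMUSG00000032802). It was scarce: the 4 media libraries held 12, 5, 7 and 2 counts, 26 in all, and the 4 lactate libraries 61, 25, 19 and 43, 148 in all. In CPM these were 0.555, 0.273, 0.390 and 0.125 in media and 3.13, 1.31, 1.34 and 2.07 with lactate, against 3.78, 3.79, 1.19 and 9.13 in naïve cells. All lactate libraries lay above all media libraries, and they overlapped the naïve ones. The log2 fold change of lactate against media was 2.49 (SE 0.62, edgeR adjusted p = 0.00700, 95% interval 1.15 to 3.84), and it was 2.09 in the low and 2.92 in the high series.

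The call of Srxn1 was less firm than its direction. It missed the threshold when any one of the media replicates 1 to 4 was left out (adjusted p = 0.0101, 0.0257, 0.0180 and 0.0200), or lactate replicate 1, 3 or 4 (0.0228, 0.0109 and 0.0164). It also missed in limma voom (0.0212) and with the library series as a term (0.0116). The log2 fold change nevertheless stayed between 2.18 and 2.86 over 22 alternative settings. Media against naïve was -3.67 (adjusted p = 0.000181), or -3.05 (adjusted p = 0.00023) without naïve replicate 4, the highest library, and lactate against naïve -1.18 (adjusted p = 0.0584), which passed the threshold without naïve replicate 3 (-1.58, adjusted p = 0.0063).

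Hmox1 encodes haem oxygenase 1, which opens the haem ring to biliverdin, iron and carbon monoxide. The gene lies on chromosome 8, 75093621 to 75100589 (plus strand, ENSMUSG00000005413). It had 9.53, 6.82, 7.75 and 9.84 CPM in the media libraries and 15.9, 17.7, 15.9 and 17.3 CPM in the lactate libraries, so the groups did not overlap. The log2 fold change of 0.98 (SE 0.32) was not called (edgeR adjusted p = 0.0298). With donor as a block it was 0.92 and passed (adjusted p = 0.00197). It also passed when the 8 activated libraries were fitted alone (adjusted p = 0.000367), without naïve replicate 3 (0.0016), in edgeR's likelihood ratio test (0.00788) and in DESeq2 (0.00924). Hmox1 missed the threshold in the other 18 of 23 alternative settings, and over all alternatives the adjusted p ran up to 0.153. Of the 13 macrophage and monocyte markers none was called between lactate and media in edgeR, and most of their sum in activated cells was Cd68 (mean 14.2 CPM in media and 8.22 with lactate). The other 12 summed to 0.390 to 1.32 CPM in media and 0.524 to 0.723 with lactate. Among them Cd14 had 2 counts over the 4 media libraries and 17 over the 4 lactate libraries (log2 fold change 2.81, adjusted p = 0.0288). Cd14, Itgam (-2.34, adjusted p = 0.017) and Cd68 (-0.79, adjusted p = 0.0902) were those with an unadjusted p under 0.05. The part of remaining macrophage RNA in the Hmox1 difference was not tested.

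In naïve cells Hmox1 was of another order, with 1034, 725, 252 and 579 CPM in replicates 1 to 4. Red pulp macrophages of the spleen, which take up old red cells, are known for strong Hmox1 expression. The summed macrophage markers of these libraries were 4203, 2769, 1249 and 1054 CPM in the same order, so replicate 1 was highest in both and replicate 4 had the third highest Hmox1 with the lowest markers. Hmox1 was 76.3-fold lower in media than in naïve cells (log2 fold change -6.25, SE 0.38, edgeR adjusted p = 3.81e-08) and 38.7-fold lower with lactate than in naïve cells. The genes whose log2 CPM followed Hmox1 most closely over the 12 libraries were Apoe (Pearson's r = 0.997) and Lgmn (r = 0.996), with means of 402, 4.58 and 10.1 CPM for Apoe and 165, 0.942 and 2.97 CPM for Lgmn in naïve, media and lactate cells. Both are abundant in macrophages. Lactate against media gave 1.66 for Lgmn (edgeR adjusted p = 0.00478), which was called, and 1.14 for Apoe (adjusted p = 0.0133), which was not. These correlations mainly describe the gap between naïve and activated libraries.

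**Figure D2:**
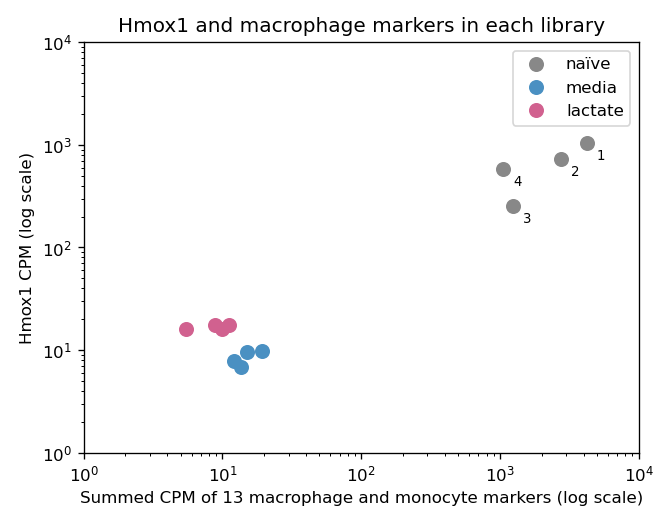
Hmox1 in CPM (log scale) against the summed CPM of 13 macrophage and monocyte markers (log scale) in each library, with naïve replicates numbered. The naïve libraries lie at 1054 to 4203 CPM of markers and 252 to 1034 CPM of Hmox1, and the lactate libraries lie above the media libraries in Hmox1 at marker sums of 5.43 to 11.1 CPM, most of which was Cd68.

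Glutathione synthesis starts with glutamate-cysteine ligase, whose catalytic subunit is encoded by Gclc and whose modifier subunit, which lowers the feedback of glutathione on the enzyme, by Gclm. Neither was called changed by lactate. Gclc (chromosome 9, 77754535 to 77794485, plus strand, ENSMUSG00000032350) had 41.6, 42.2, 43.1 and 36.9 CPM in media and 47.7, 35.5, 34.0 and 40.6 with lactate. The lactate libraries spanned the media libraries, and the log2 fold change was -0.05 (adjusted p = 0.863 from edgeR, 95% interval -0.48 to 0.37). Gclm (chromosome 3, 122245557 to 122270732, plus strand, ENSMUSG00000028124) had 32.7, 30.2, 32.3 and 31.9 CPM in media and 34.2, 29.0, 27.0 and 29.5 with lactate, a log2 fold change of -0.09 (adjusted p = 0.77, 95% interval -0.53 to 0.35). These intervals leave room for changes of either sign that are smaller than the change of Txnrd1. Of the exons of Gclm, 3.88% overlap Gm6061 on the same strand and 4.71% overlap Gm17494 on the other strand, so a small part of its counts is uncertain.

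In naïve cells Gclc had 77.7, 80.9, 75.9 and 144 CPM, all above the highest activated library, and it was called lower in media (log2 fold change -1.21, SE 0.20, edgeR adjusted p = 0.000134) and with lactate (-1.26, adjusted p = 7.58e-05). Without naïve replicate 4, the highest, these were -0.94 (adjusted p = 1.14e-05) and -0.99 (adjusted p = 5.4e-06). Gclm had 42.0, 61.6, 25.2 and 41.8 CPM in naïve cells, which overlapped both activated groups. Its log2 fold change of media against naïve was -0.42 (adjusted p = 0.0794), and of lactate against naïve -0.51 (adjusted p = 0.0359). Without naïve replicate 3, the naïve library with the least Gclm, both passed the threshold at -0.69 (adjusted p = 0.00141) and -0.78 (adjusted p = 0.000477).

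The balance of the 2 subunits can be read within each library as a ratio of TPM, which does not depend on the scaling between libraries. The ratio of Gclm to Gclc was 0.288 ± 0.130 (SD, n = 4) in naïve cells, 0.466 ± 0.0380 in media and 0.457 ± 0.0288 with lactate. In naïve libraries it was 0.324, 0.456, 0.199 and 0.174, so replicate 2 fell among the activated libraries, which ran from 0.429 to 0.517. Lactate and media differed by -0.03 on the log2 scale (two-sided exact permutation test of 4 against 4, p = 0.743). Media and naïve cells differed by 0.80 (exact permutation test, p = 0.0857), and 0.0286 is the smallest p that 70 arrangements of 4 against 4 can give.

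Nfe2l2 and Keap1 moved in opposite directions from naïve to activated cells, and neither was called between the activated groups. Nfe2l2 (chromosome 2, 75675513 to 75704641, minus strand, ENSMUSG00000015839) had 92.3, 90.6, 87.2 and 85.5 CPM in naïve cells, 35.6, 42.3, 42.2 and 32.8 in media and 42.7, 47.5, 32.5 and 35.9 with lactate. The naïve libraries lay close together and far above the rest, and the activated groups overlapped. Nfe2l2 was 2.33-fold lower in media than in naïve cells (log2 fold change -1.22, SE 0.13, edgeR adjusted p = 3.08e-06), with -1.17 in the low and -1.38 in the high library series. The value in the high series compares media replicate 4 with naïve replicate 4 alone. Lactate against naïve gave -1.16 (adjusted p = 3.32e-06). Lactate against media gave 0.05 (adjusted p = 0.766, 95% interval -0.22 to 0.33). Both calls against naïve cells held in all 22 alternative settings.

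Keap1 (chromosome 9, 21229730 to 21239361, minus strand, ENSMUSG00000003308) had 72.8, 72.9, 79.5 and 48.7 CPM in naïve cells, 101, 87.8, 89.0 and 96.5 in media and 108, 97.1, 111 and 116 with lactate. Every activated library lay above every naïve one. Lactate against naïve gave a log2 fold change of 0.66 (SE 0.13, edgeR adjusted p = 0.000629), which held in all 22 alternative settings. Media against naïve gave 0.45 (adjusted p = 0.00902), which stood just inside the threshold. That call was lost in 15 of 22 settings, among them those without naïve replicate 1, 2 or 3 (adjusted p = 0.0175, 0.0312 and 0.0120), without media replicates 1 to 4 (0.0273, 0.0124, 0.0148 and 0.0426) and without lactate replicates 1 to 4 (0.0128, 0.0102, 0.0266 and 0.0252). Lactate against media gave 0.21 (adjusted p = 0.237, 95% interval -0.08 to 0.49). Of the exons of Keap1, 10.9% overlap Gm16754 on the other strand, and no source used here says whether counting used strand, so that share of its counts is uncertain.

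Per gene length, Nfe2l2 was the more abundant of the pair in naïve cells and Keap1 in activated cells. The TPM ratio of Nfe2l2 to Keap1 was 1.66 ± 0.354 (SD, n = 4) in naïve cells, 0.509 ± 0.0946 in media and 0.460 ± 0.112 with lactate. The naïve libraries ran from 1.36 to 2.17 and no activated library exceeded 0.605. Media and naïve cells differed by -1.70 on the log2 scale and lactate and naïve cells by -1.86, both at the smallest p that an exact permutation test of 4 against 4 can give (two-sided p = 0.0286, 0.0857 after adjustment over 6 ratio tests). Lactate and media differed by -0.16 (exact permutation test, p = 0.486).

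**Figure D3:**
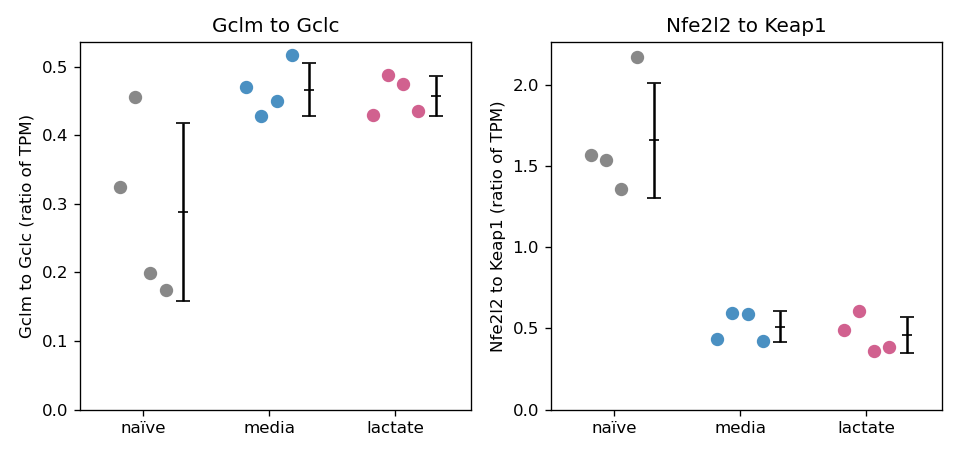
Ratio of TPM within each library for Gclm to Gclc (left) and Nfe2l2 to Keap1 (right), with points for the 4 libraries of a group and bars for the mean ± SD. The Nfe2l2 to Keap1 ratio lies between 1.36 and 2.17 in naïve libraries and at or under 0.605 in activated ones, and neither ratio separates media from lactate.

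Nqo1 encodes a quinone reductase that is among the most used NRF2 reporters in other tissues. In these T cells it was barely detected, with 11 to 51 counts in naïve libraries, 9 to 22 in media and 17 to 27 with lactate. The gene lies on chromosome 8, 107388225 to 107403206 (minus strand, ENSMUSG00000003849). Its levels were 1.97, 3.06, 0.593 and 1.29 CPM in naïve cells, 1.02, 0.491, 1.11 and 0.690 in media and 1.38, 0.943, 1.2 and 1.06 with lactate, and all 3 groups overlapped. The log2 fold change of lactate against media was 0.46 (adjusted p = 0.444 from edgeR), with a 95% interval of -0.50 to 1.42 that is too wide to tell an unchanged level from the change of Txnrd1. Media against naïve was -1.04 (adjusted p = 0.0489) and passed the threshold without naïve replicate 3 (-1.41, adjusted p = 0.00446).

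By TPM, the most abundant members in media were Keap1 (69.1 ± 4.97, SD, n = 4), Gsr (60.0 ± 11.6) and Txnrd1 (48.0 ± 9.82), followed by Gclc (37.8 ± 3.68), Nfe2l2 (35.0 ± 5.12), Gclm (17.5 ± 0.877), Hmox1 (16.8 ± 2.63), Nqo1 (1.86 ± 0.678) and Srxn1 (0.418 ± 0.233). Neighbours in this order overlapped within 1 SD from Keap1 to Gsr, from Gsr to Txnrd1, from Txnrd1 to Gclc, from Gclc to Nfe2l2 and from Gclm to Hmox1. With lactate Gsr (95.4 ± 14.0) and Txnrd1 (92.8 ± 21.3) had the highest means, followed by Keap1 (72.6 ± 4.19). Txnrd1 overlapped Gsr and Keap1 within 1 SD. In naïve cells Hmox1 led with 1261 ± 631 TPM, followed by Gclc (86.5 ± 33.5) and Nfe2l2 (79.9 ± 2.55). Gclc and Nfe2l2 overlapped within 1 SD, and Gclc stood above Nfe2l2 only in naïve replicate 4.

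**Figure D4:**
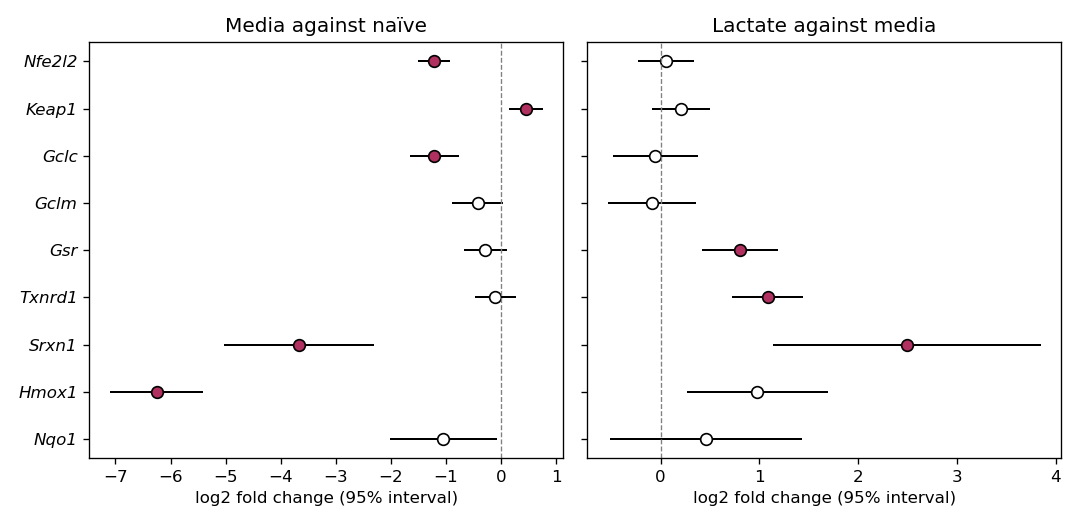
Log2 fold change of each member with its 95% interval for media against naïve (left) and lactate against media (right), from edgeR. Filled points passed an adjusted p of 0.01. Nfe2l2, Gclc, Srxn1 and Hmox1 were lower and Keap1 higher in media than in naïve cells, while Gsr, Txnrd1 and Srxn1 were higher with lactate than in media.

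Between naïve and media-activated cells, 4 members were called lower (Nfe2l2, Gclc, Srxn1 and Hmox1) and 1 higher (Keap1), where 29% of all genes tested were called lower and 28.5% higher, 57.5% in all. Those 5 were also the members whose groups did not overlap, which held for 30.5% of all genes below and 30.7% above the naïve libraries. Between naïve and lactate-activated cells, 3 were called lower (Nfe2l2, Gclc and Hmox1) and 2 higher (Keap1 and Txnrd1), against 32% and 33% of all genes, 65% in all. The 2 comparisons share the naïve libraries, and in both the markers of macrophages, B cells and red cells were also lower in activated cells. Whether this bears on the members that were lower was not tested.

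The genes whose log2 CPM ran closest to a member over the 12 libraries were Dkc1 (r = 0.986) and Prpf19 (r = 0.986) for Txnrd1, and Ltb4r1 (r = 0.946) and Usp46 (r = 0.944) for Gsr. Dkc1, a pseudouridine synthase of small nucleolar and telomerase RNAs, had 77.1 CPM in naïve cells, 69.98 in media and 175 with lactate, and Prpf19, a ubiquitin ligase of the spliceosome, 120, 106 and 221. Trim11 (r = 0.991) and Dock4 (r = 0.983) followed Nfe2l2, Rab27a (r = 0.979) and Fbxw17 (r = 0.978) followed Keap1, and Casc3 (r = 0.983) and Angel2 (r = 0.982) followed Gclc. The closest to Srxn1 were Tlnrd1 (r = 0.960) and Gm15706 (r = 0.956), to Gclm Prtn3 (r = 0.925) and Optn (r = 0.903), and to Nqo1 Arhgap23 (r = 0.904) and Otub2 (r = 0.894). The points of each correlation share 3 groups, so much of each r is the difference between groups.

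A wider list of the pathway held 91 genes, of which 82 were in the count table and all of these were tested. This list, too, was chosen with earlier results of these data known. Lactate against media called 14 of the 82 higher and 5 lower (17.1% and 6.1%, against 13.9% and 11.1% of all genes tested), and the median log2 fold change was 0.17. None of the 10 genes for control of NRF2 and its partners was called by edgeR. An unadjusted edgeR p under 0.05 was reached by 3 of the 10, where 24.8% of all genes tested were higher and 23.4% lower at that p. The mean levels in naïve, media and lactate cells were 135, 193 and 205 CPM for Nfe2l1, an endoplasmic reticulum-bound relative of NRF2, and 56.5, 19.9 and 14.5 CPM for Bach1, a repressor that competes for the same elements. The small MAF partners had 41.6, 57.0 and 66.6 CPM for Mafg, 129, 28.8 and 49.0 CPM for Mafk and 23.4, 15.3 and 12.1 CPM for Maff. The parts of the KEAP1 ligase had 181, 207 and 233 CPM for Cul3 and 48.9, 56.1 and 74.1 CPM for Rbx1. Sqstm1, whose p62 protein draws KEAP1 into autophagy, had 363, 161 and 137 CPM, and the alternative NRF2 ligase adaptors Btrc and Fbxw11 had 23.9, 23.9 and 20.4 CPM and 71.9, 130 and 151 CPM. From naïve to media-activated cells edgeR called Bach1 (log2 fold change -1.51, adjusted p = 2.98e-05), Mafk (-2.16, adjusted p = 4.45e-05) and Sqstm1 (-1.18, adjusted p = 0.000264) lower, and Nfe2l1 (0.51, adjusted p = 0.00386) and Fbxw11 (0.85, adjusted p = 0.000977) higher. Mafk fell by 2.75 in the low and by 0.71 in the high library series, which holds 1 naïve and 1 media library. In the same order Nfe2l1 gave 0.68 and 0.008, Fbxw11 1.09 and 0.34, Bach1 -1.29 and -2.05, and Sqstm1 -0.90 and -1.73.

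**Figure D5:**
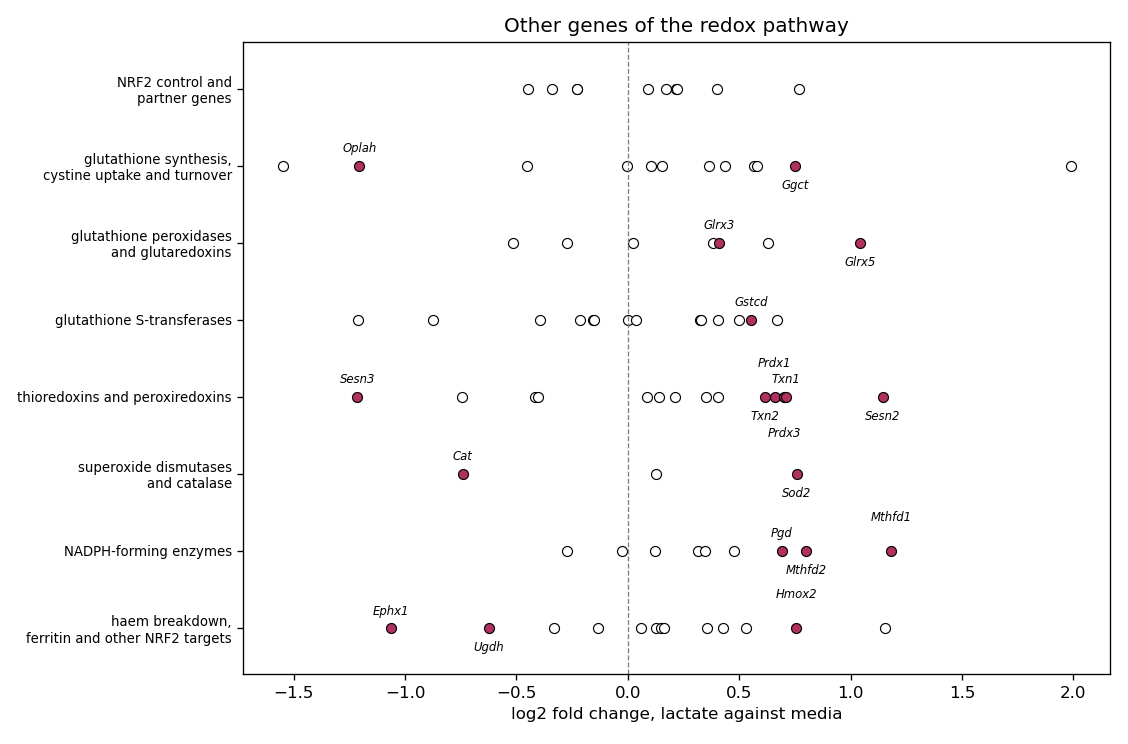
Log2 fold change of lactate against media for each tested gene of the 8 pathway lists, from edgeR, with filled points for an adjusted p of at most 0.01. The calls lie mostly to the right in the list with thioredoxins, peroxiredoxins and sestrins (5 higher, 1 lower). They do so too in the list named for NADPH-forming enzymes (3 higher, 0 lower). There are none among the 10 control and partner genes.

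Among the 14 genes listed with the thioredoxins and peroxiredoxins, which include the sestrins, Txnip and other thioredoxin reductases, 5 were higher with lactate and 1 lower. Sesn2, a stress-induced sestrin that restrains mTORC1, had the strongest rise (84.2 against 38.1 CPM, log2 fold change 1.14, adjusted p = 0.00204 from edgeR), and its relative Sesn3 was the one that fell (122 against 283 CPM, -1.21, adjusted p = 6.36e-05). The other 4 were Txn1 (0.71, adjusted p = 0.000631), the main substrate of Txnrd1, and Txn2, Prdx1 and Prdx3, whose adjusted p were 0.0004, 0.00125 and 0.000573. These 4, like Mthfd2, Oplah, Slc7a11, Gss, Ggt1 and Ugdh in the comparison of lactate with media, were chosen after their values were seen. Of the 9 genes tested that were listed with the NADPH-forming enzymes, not all of which form NADPH, 6 were not called and 3 were higher with lactate. They were Pgd of the pentose phosphate pathway (195 against 121 CPM, 0.69, adjusted p = 0.000129), Mthfd1 of cytosolic folate metabolism (175 against 77.4 CPM, 1.18, adjusted p = 0.00151) and Mthfd2 of the mitochondrial branch (388 against 223 CPM, 0.80, adjusted p = 0.00102).

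Of the 7 glutathione peroxidases and glutaredoxins tested, Glrx5 (54.8 against 26.6 CPM, log2 fold change 1.04, adjusted p = 0.00216) and Glrx3 (118 against 88.9 CPM, 0.41, adjusted p = 0.00307) were higher with lactate and the other 5 were not called. Both are known for iron-sulfur cluster handling rather than for peroxide removal. Of the 12 genes for glutathione synthesis, cystine uptake and turnover, Ggct, which cleaves gamma-glutamyl amino acids, was higher (14.3 against 8.50 CPM, 0.75, adjusted p = 0.00461) and Oplah, the 5-oxoprolinase, lower (-1.21, adjusted p = 0.00187). Slc7a11, the cystine carrier and a known NRF2 target, had 0.370, 0.109, 0.446 and 0.188 CPM in media and 2.25, 0.576, 1.2 and 0.530 with lactate. Its groups did not overlap, and the log2 fold change of 1.99 missed the threshold (adjusted p = 0.105). In the same list Gss, the glutathione synthetase (24.4 against 33.4 CPM, -0.45, adjusted p = 0.0209), and Ggt1 (2.08 against 6.15 CPM, -1.55, adjusted p = 0.0652) also missed it, with every lactate library below every media library. Gstcd was the 1 called among 14 glutathione S-transferases (0.55, adjusted p = 0.00461).

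Of the superoxide dismutases and catalase, mitochondrial Sod2 was higher with lactate (97.4 against 57.5 CPM, log2 fold change 0.76, adjusted p = 0.000115 from edgeR) and Cat lower (57.1 against 95.4 CPM, -0.74, adjusted p = 0.00425). Of the 13 genes for haem breakdown, ferritin and other NRF2 targets, Hmox2, the constitutive haem oxygenase, was higher (145 against 85.8 CPM, 0.76, adjusted p = 0.000345), and the epoxide hydrolase Ephx1 (41.6 against 86.8 CPM, -1.06, adjusted p = 0.000377) and Ugdh (-0.62, adjusted p = 0.00237) were lower.

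From naïve to media-activated cells, edgeR called 26 of the 82 pathway genes higher and 16 lower (31.7% and 19.5%, against 28.5% and 29% of all genes tested), and the median log2 fold change was 0.21, against -0.03 over all genes. The glutathione S-transferases had 7 higher and 1 lower, with Gstt1 highest (17.0 against 0.592 CPM, 4.86) and Mgst1 the one that was lower. Mgst1 had 14.6 CPM in naïve cells and no count in any activated library. At a floor of 3 counts per library, Mgst1 was at least 88.8-fold lower in media and at least 87.4-fold lower with lactate. Among the genes for glutathione synthesis and turnover, 4 were higher and 6 lower, with the glutathione-degrading Chac1 at 7.96 against 0.989 CPM (3.00) and Slc7a11 at -4.62. Slc7a11 had 3.89, 3.72, 1.08 and 19.7 CPM in the naïve libraries, so replicate 4 made up most of its mean. The genes listed with the thioredoxins and peroxiredoxins had 4 higher and 1 lower, among them Prdx4 of the endoplasmic reticulum (56.6 against 8.68 CPM, 2.71) and the sestrin Sesn1 (-1.25).

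Peroxidases and glutaredoxins had 3 higher and 1 lower, with Glrx3 at 1.17 and Gpx1 at -1.32. Gpx1 overlapped between the groups and gave 0.09 in the high library series, from 1 naïve and 1 media library. The genes listed with the NADPH-forming enzymes had 3 higher, among them Mthfd2 (223 against 30.2 CPM, 2.89) and Pgls (0.58), and the other 6 were not called. The haem, ferritin and other targets had 3 higher, led by Ugdh (1.70), and 4 lower, led by Osgin1 (-1.96). None of the superoxide dismutases and catalase was called by edgeR. Lactate against naïve cells called 38 of the 82 higher and 19 lower (46.3% and 23.2%, against 33% and 32% of all genes tested), and the median log2 fold change was 0.53, against 0.01 over all genes.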

How the data were processed

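Poly(A) RNA of mouse CD8+ T cells (4 naïve, 4 media and 4 lactate libraries) was sequenced with a strand-marking kit. The authors demultiplexed with bcl2fastq 2.20.0.422, aligned with STAR 2.7.5b to GRCm38 (mm10), removed PCR duplicates and counted reads per gene with featureCounts. The strand setting is not given in the sources used here. The deposited values are raw counts for 13780 expressed genes, with gene lengths. Total counts were 14726904 to 21478137 per library, and their number limits the precision of scarce genes.

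Groups followed the labels. Genes with at least 1 CPM in at least 3 libraries (13767) were scaled by TMM and fitted with edgeR 4.0.16 (R 4.3.3) by quasi-likelihood, with 3 group terms and Benjamini-Hochberg adjustment over all genes tested. The threshold was an adjusted p of 0.01. Log2 CPM used a prior count of 2. Standard errors were the log2 fold change divided by the root of the F statistic, and intervals were at 95%. TPM used the lengths in the table and sum over listed genes only. Ratios of TPM were compared by exact permutation tests (two-sided). limma 3.58.1 (voom), DESeq2 1.42.0, other filters, scalings, blocks and left-out libraries were alternatives, and the scripts were tested on simulated data.

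The numbers of donors are stated, and which libraries share one was inferred from donor tags in the library names, read separately in each library series because the tags restart. On that reading, of the 5 donors of activated cells 3 are represented in both the media and the lactate group. The deviations of these pairs from their group means correlated at 0.374, 0.211 and 0.553. Pairs read as different donors ran from -0.441 to 0.372. The highest of these was lactate replicate 3 with media replicate 4, both of the high library series. The main fit had no donor term, and donor was a block only in an alternative setting for lactate against media. Library numbers fall in a low series of 8 libraries (3 naïve, 3 media, 2 lactate) and a high series of 4 (1, 1 and 2), and the meaning of the series is not stated. No pair of libraries was identical. Pathway genes named in the text were, per list, the called genes with the largest and the smallest log2 fold change among those with a mean of at least 5 CPM in a group, with all control and partner genes, and the neighbours of a member were those with the highest Pearson's r of log2 CPM. The members and lists were chosen with earlier results of these data known.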

Additional observations from a re-analysis of the deposited data

Results flagged for a closer look

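Gclc in naïve replicate 4 was far from the other naïve libraries, at 144 CPM against 75.9 to 80.9 CPM in replicates 1 to 3, so the gap to its nearest neighbour was 0.926 of the whole spread of naïve values, past the limit of Dixon's test. It was the 1 such case among 33 groups of 4 tested, where chance gives about 1 in 20. Without this library Gclc was still called lower in media than in naïve cells, at a log2 fold change of -0.94 (adjusted p = 1.14e-05 from edgeR).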

How the results depend on the processing

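Of 25 alternative settings, those for lactate against media left the number of members called lower at 0 throughout, while the number called higher ran from 1 to 4. It was 1 without media replicate 2, media replicate 4 or lactate replicate 1, and 2 in limma voom, with the library series as a term, with at least 10 counts in every library, and on leaving out any of media replicates 1 and 3 and lactate replicates 3 and 4. For media against naïve, the 1 member called higher, Keap1, became 0 with DESeq2 size factors, with at least 10 counts in every library, with only the groups compared and with the replicate block by title number (and 0 to 1 without 1 library). Members called lower with lactate than in naïve cells numbered 3 to 5 without 1 library, with 5 without naïve replicate 3. Pathway genes called lower with lactate than in media rose from 5 to 9 in DESeq2, with only the groups compared, and at an adjusted p of 0.05, and those called higher from 14 to 22 with only the groups compared. The cause was not tested.

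With the replicate block by donor, Gclc turned from -0.05 to 0.0258 (adjusted p = 0.872 from edgeR) for lactate against media, Hmox1 passed the threshold and no other member changed its call. Same-numbered titles correlated at 0.374, 0.297, 0.0038 and 0.553 and were not read as pairs. The replicate block by title number, fitted as an alternative all the same, gave 3 members higher and 0 lower for lactate against media. Uncalled changes near 0 turned sign without 1 library: Txnrd1 in media against naïve (-0.207 to 0.0103), and in lactate against media Nfe2l2 (-0.0428 to 0.138, below 0 without media replicate 4 or lactate replicate 2), Gclc (-0.156 to 0.00877, above 0 without lactate replicate 3) and the Gclm to Gclc ratio (-0.0679 to 0.0226 on the log2 scale, with 9e-04 without lactate replicate 1). That ratio ran from 0.59 to 1.06 for media and from 0.57 to 1.03 for lactate against naïve, and without naïve replicate 2 both reached an exact permutation p of 0.0286. Nqo1 and Srxn1 have no value with at least 10 counts in every library. Depth limits Nqo1 and Srxn1 most.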

Other observations

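Naïve replicate 4 also stood far from the other naïve libraries, by the same measure of distance, in other pathway genes. It was far above them in 8 of the 82 pathway genes and far below in 5, where it was far above in 7.52% and far below in 2.83% of all 13767 genes tested. Sqstm1 had 312, 301, 264 and 576 CPM in naïve replicates 1 to 4, Prdx6, a peroxiredoxin that uses glutathione, 135, 139, 135 and 281 CPM, and Txnrd3 4.68, 4.63, 3.72 and 17.1 CPM. In the other direction Ggt1, which splits extracellular glutathione, had 71.5, 69.4, 75.5 and 8.24 CPM, and Glrx, the cytosolic glutaredoxin, 19.4, 18.9, 19.2 and 9.80 CPM. These genes were chosen after their values were seen.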
